A study of Mus musculus with 6 samples.

Results

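Somatostatin is the hormone of the islet's delta cells, and the genes described here are its precursor gene, 4 of its receptor genes and 3 genes that mark delta cells. The 8 members were chosen by gene symbol in the GENCODE vM21 annotation: Sst, the receptors Sstr1, Sstr2, Sstr3 and Sstr5, and the delta cell genes Hhex, Ghsr and Rbp4. They are 8 of the 54119 annotated genes in the series. Pancreatic islets were taken from male C57BL/6 mice at postnatal day 24, with 1 mouse per library. The 3 control libraries carry the genotype label Control, and the 3 others carry the label Dpy30 knockout. The labels name neither the Cre driver nor the deleted part of the gene, so the cells in which Dpy30 was lost are not known here. Dpy30 is a shared core subunit of the enzyme complexes that methylate lysine 4 of histone H3, a mark found at active promoters, and the series asks what this methylation does in endocrine cells that mature after birth.

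Delta cells are a minority of islet cells, scattered among the insulin-producing beta cells and glucagon-producing alpha cells. Their prosomatostatin is cut to somatostatin, which acts on nearby cells through receptors coupled to inhibitory G proteins and restrains the release of insulin and glucagon. Sstr3 is the main somatostatin receptor gene of mouse beta cells and Sstr2 that of mouse alpha cells, while Hhex encodes a homeobox factor needed for delta cell identity. Ghsr encodes the ghrelin receptor, through which ghrelin stimulates delta cells, and Rbp4 encodes the plasma carrier of retinol, which islet delta cells also express.

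Sst, Sstr3 and Rbp4 were lower in Dpy30 knockout islets, at 53.3%, 34.2% and 32.4% of their mean control level, and no member was higher. The test was edgeR's quasi-likelihood test with Benjamini-Hochberg adjustment over all tested genes at 0.05, on read counts scaled between libraries by TMM. Of 7 members with enough reads to be tested, 3 were called lower, against 5.84% of all 16430 tested genes called lower and 4.1% called higher (9.95% called in all). The median log2 fold change of the 7 was -0.91, and that of all tested genes was 0.01. In 5 of the 7 every knockout library was below every control library in these scaled counts, which held for 17.2% of all tested genes, while 17.6% had every knockout library above (34.8% for both directions together). Sstr5 had too few reads to be tested.

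Depth was between 17131515 and 25354384 estimated reads per library. In knockout replicate 2, 14.7% of reads fell on Gm42418, a gene model that overlaps ribosomal RNA, against at most 0.236% in any other library. At the transcript level the targeted gene differed between the groups. Between 80.5 and 82.2% of Dpy30 reads in the knockout libraries were assigned to transcripts that skip exon 4, against 0.438 to 5.24% in the control libraries (exact permutation test, two-sided, p = 0.1, the smallest that 3 against 3 libraries can give). Exon 4 was first pointed to by earlier results of these same data, so the test is no independent check of the labels. Summed over all transcripts, Dpy30 itself was not called (log2 fold change 0.40, SE 0.23, adjusted p = 0.298), but with an offset for transcript length it was called higher (0.99, adjusted p = 0.0296). In the authors' deposited table its log2 fold change was 0.88 (adjusted p = 0.000957). Marker genes of other cells moved beside the members. The summed level of 8 acinar genes was 608 to 2542 CPM (counts scaled to library size) in control and 1789 to 9823 CPM in knockout libraries, overlapping between groups, and 0 of the 8 were called. The 4 endothelial markers summed to 360 to 459 CPM in control and 498 to 691 CPM in knockout libraries with 2 of 4 higher, and the 5 mesenchymal markers to 181 to 398 and 321 to 673 CPM with 1 of 5 higher. The 8 beta cell markers summed to 159270 to 263757 CPM in control and 71233 to 121449 CPM in knockout libraries with 2 of 8 lower. The 6 alpha cell markers counted summed to 36556 to 65662 and 24375 to 29323 CPM, with 1 lower and 1 higher, and the 5 duct markers to 31.5 to 42.7 and 50.5 to 60.9 CPM, with 1 of 4 tested higher. Ins1, Ins2 and Gcg, which make up most of the beta and alpha sums, were not called. The 5 immune markers summed to 54.0 to 92.7 CPM in control and 51.9 to 60.6 CPM in knockout libraries, with C1qa lower and Cd68 higher. The 3 Schwann cell markers summed to 13.3 to 24.4 and 18.0 to 31.1 CPM, and 0 were called. Over all tested genes 5.84% were called lower and 4.1% higher. The part of these markers in the results below was not tested, and in whole islets fewer cells of a type cannot be told apart from less RNA per cell.

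The sequences around the start of Sst are shown first because they hold the cyclic AMP response element through which CREB drives this gene, and those of Hhex because its start contrasts with that of Sst in CpG content, a feature that goes with methylated H3K4 in general. RefSeq (GRCm38.p6) gives windows of 300 bases, from 250 before to 50 after a gene's start, for 6 of the 8 members, in 8 windows. The full element TGACGTCA, which reads the same on both strands, was found in the windows of Sst and Sstr2 and in 1.79% of all 32851 windows. It starts 48 bases before the RefSeq start in Sst and 58 bases before it in Sstr2. These are the 30 bases around it, each 5′ to 3′ on the gene's own strand with the element in capitals, at chr16:23890874-23890903 (minus strand) for Sst and chr11:113619258-113619287 (plus strand) for Sstr2. In Sst these bases lie inside the GENCODE transcript, which starts further upstream than the RefSeq one.
Sst: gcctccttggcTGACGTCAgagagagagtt
Sstr2: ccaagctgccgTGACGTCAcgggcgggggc

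The next lines give the bases of the same windows that precede both the GENCODE and the RefSeq start, with every CG in capitals. The Sst stretch is chr16:23890959-23891094 (minus strand, 136 bases, 3 CG) and the Hhex stretch is chr19:37434591-37434809 (plus strand, 219 bases, 26 CG).
Sst: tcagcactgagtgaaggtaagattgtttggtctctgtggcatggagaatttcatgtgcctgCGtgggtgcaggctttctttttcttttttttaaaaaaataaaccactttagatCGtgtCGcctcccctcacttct
Hhex: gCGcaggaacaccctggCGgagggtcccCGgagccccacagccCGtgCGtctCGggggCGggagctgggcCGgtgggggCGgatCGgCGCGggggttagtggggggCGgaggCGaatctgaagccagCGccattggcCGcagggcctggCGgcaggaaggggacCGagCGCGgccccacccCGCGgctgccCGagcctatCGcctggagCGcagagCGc

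Over the whole 300-base windows Hhex held 37 CG, more than 94.4% of all windows, and Sst held 13, more than 62.1% (median of all windows 7). Sstr2 held 27 and Ghsr 16. Rbp4 and Sstr3 have more than 1 annotated start. The windows of Rbp4 held 40 and 5 CG, and those of Sstr3 held 10 and 1. Among the genes called lower, Sst held 13 CG. The count of Sstr3 (10 or 1) and that of Rbp4 (40 or 5) depended on the start taken. A link between CpG count and the calls was not tested. Which start was used in these islets was not measured.

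Sst (ENSMUSG00000004366, GRCm38 chromosome 16, 23889573 to 23890958, minus strand) has a single transcript in the files. Its level was 3121, 3226 and 2845 CPM in the control libraries (replicates 1, 2 and 3, an order kept throughout) and 1755, 1361 and 1785 CPM in the knockout libraries. Every knockout library was below every control library, and the gap between groups was wider than the range inside either of them. The mean fell from 3064 ± 197 to 1634 ± 237 CPM (SD, n = 3 each), a log2 fold change of -0.91 with SE 0.19 (adjusted p = 0.0217, edgeR quasi-likelihood test). This call was lost in the fits without control replicate 1 (adjusted p = 0.0700), control replicate 2 (0.0741), control replicate 3 (0.0606) or knockout replicate 3 (0.0507), with log2 fold changes between -0.97 and -0.79 as each of the 6 libraries was left out in turn. It was also lost when libraries were scaled by their totals alone (-0.76, adjusted p = 0.0838), a scaling that moved the median of all genes to 0.14 and gave 674 lower and 1054 higher genes in place of 960 and 674. Relative to that median the change of Sst was -0.90. With the acinar level of each library as a covariate it was -1.09 (adjusted p = 0.0450).

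**Figure D1:**
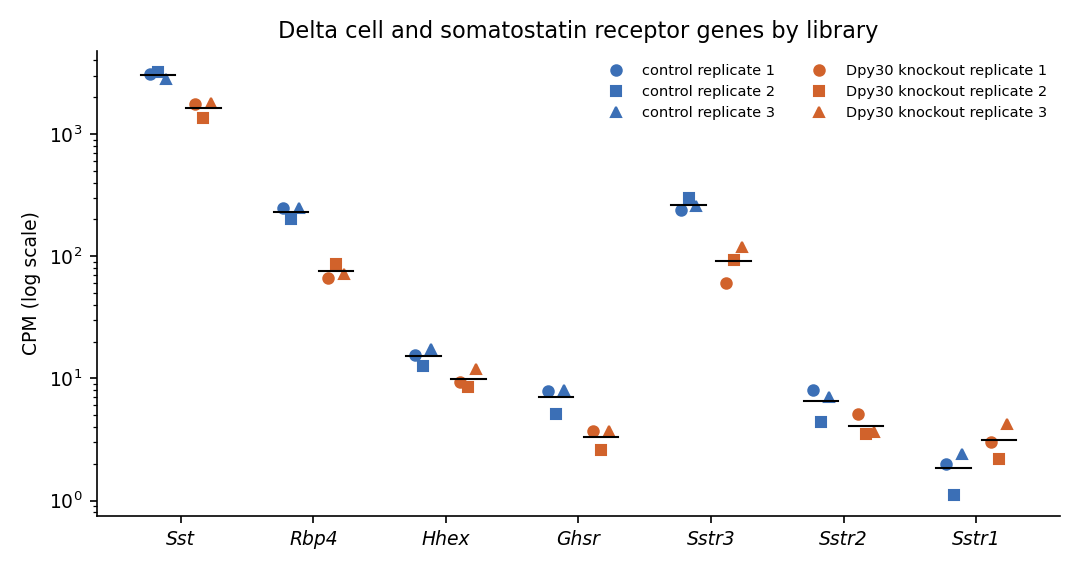
Level of each of the 7 tested members in the 6 libraries, in CPM on a log axis, with control in blue and Dpy30 knockout in orange. Circles, squares and triangles are replicates 1, 2 and 3 and black lines are group means. The groups of Sst, Sstr3 and Rbp4 stand well apart, those of Hhex and Ghsr narrowly, and those of Sstr1 and Sstr2 overlap.

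The share of somatostatin among islet hormone transcripts overlapped between the groups, unlike its level. Reads of the 8 hormone genes made up 21.9 to 27.6% of all reads in control libraries and 10.5 to 13.7% in knockout libraries. Sst held 1.36, 1.07 and 1.21% of these hormone reads in control and 1.84, 0.921 and 1.48% in knockout libraries. The knockout values lay on both sides of the control values (exact permutation test, two-sided, p = 0.6, and 0.682 after Benjamini-Hochberg adjustment over 25 such tests). Without the insulin genes in the total, the shares of Sst were 3.61 to 5.17% in control and 3.11 to 5.10% in knockout libraries, again overlapping. Among the other hormones Ppy, pancreatic polypeptide, and Pyy, peptide YY, were called lower. In all 3 of 8 hormone genes fell and 0 rose (5.84% and 4.1% of all tested genes). With the replicate number as a block, 5 hormone genes were lower. The call of Pyy was lost with the acinar covariate (log2 fold change -1.34, adjusted p = 0.0694). The insulin genes Ins2 (log2 fold change -1.12, SE 0.33, adjusted p = 0.0690) and Ins1 (-1.16, SE 0.35, adjusted p = 0.0779) missed the threshold, and were called with the block (0.0229 and 0.0219), with DESeq2 (0.000136 and 0.000902) and with no filter (0.00278 and 0.00616).

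Rbp4 (ENSMUSG00000024990, chromosome 19, 38116629 to 38125281, minus strand) had the lowest adjusted p of the 7 tested members. Its control libraries held 247, 201 and 247 CPM and its knockout libraries 66.9, 86.0 and 72.1 CPM. Even the highest knockout library was well under the lowest control library. The mean fell from 232 ± 26.3 to 75.0 ± 9.90 CPM, or by 1.63 on the log2 scale with SE 0.16 (adjusted p = 0.00177, edgeR quasi-likelihood test), and the call held whichever library was left out. The transcript Rbp4-202 held 79.9 to 82.6% of the gene's reads in every library of both groups.

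Hhex (ENSMUSG00000024986, chromosome 19, 37434810 to 37440731, plus strand), the delta cell homeobox gene, did not pass the test. It was at 15.6, 12.6 and 17.3 CPM in control and 9.35, 8.57 and 11.9 CPM in knockout libraries. The groups did not overlap in CPM, but knockout replicate 3 and control replicate 2 were close. The log2 fold change was -0.61 (SE 0.21, adjusted p = 0.106), which became a call with the replicate number as a block (adjusted p = 0.0427) and not with DESeq2 (0.0568). Hhex-201 held 63.6 to 80.1% of its reads.

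Ghsr (ENSMUSG00000051136, chromosome 3, 27371351 to 27378010, plus strand), the ghrelin receptor gene, has 1 transcript in the files and was at 7.89, 5.08 and 8.05 CPM in control and 3.73, 2.58 and 3.69 CPM in knockout libraries. Its groups did not overlap in CPM, and by the edgeR fit its level in knockout islets was 47.9% of that in control islets. At a log2 fold change of -1.06 (SE 0.28) its adjusted p was 0.0521, just above the threshold. It was called with the replicate block (adjusted p = 0.0201), with DESeq2 (0.00659) and with no filter on low counts (0.0358), and with the acinar covariate its adjusted p was 0.208. The ghrelin list of 5 genes, Ghsr included, gave 0 calls among its 3 tested genes with edgeR or limma; 1 of them, Ghsr, had an unadjusted p under 0.05 and was called by DESeq2. Ghrl, the ghrelin gene of epsilon cells, was at 11.8, 6.50 and 20.6 CPM in control and 9.51, 10.2 and 10.3 CPM in knockout libraries (log2 fold change -0.37, SE 0.37, adjusted p = 0.557). Its knockout libraries all lay inside the wide range of its control libraries.

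Ratios within each library set the delta cell genes against each other. The log2 ratio of Rbp4 to Hhex was 3.98, 4.0 and 3.84 in control and 2.84, 3.33 and 2.60 in knockout libraries, a difference of -1.02 with no overlap between groups (exact permutation test, two-sided, p = 0.1, the smallest possible here, and 0.25 after adjustment). For Rbp4 to Sst the log2 ratio was -3.66, -4.0 and -3.53 in control and -4.71, -3.98 and -4.63 in knockout libraries. Here knockout replicate 2 lay among the control libraries, and the difference of -0.71 did not pass (exact permutation p = 0.2). For Sst to Hhex the log2 ratio was 7.64, 8.0 and 7.36 in control and 7.55, 7.31 and 7.23 in knockout libraries, an overlap (exact permutation p = 0.2). Ghsr to Sst differed by -0.14 (exact permutation p = 0.6). The ratios of Rbp4 to Hhex and of Ghsr to Sst were added with the members' values in view.

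**Figure D2:**
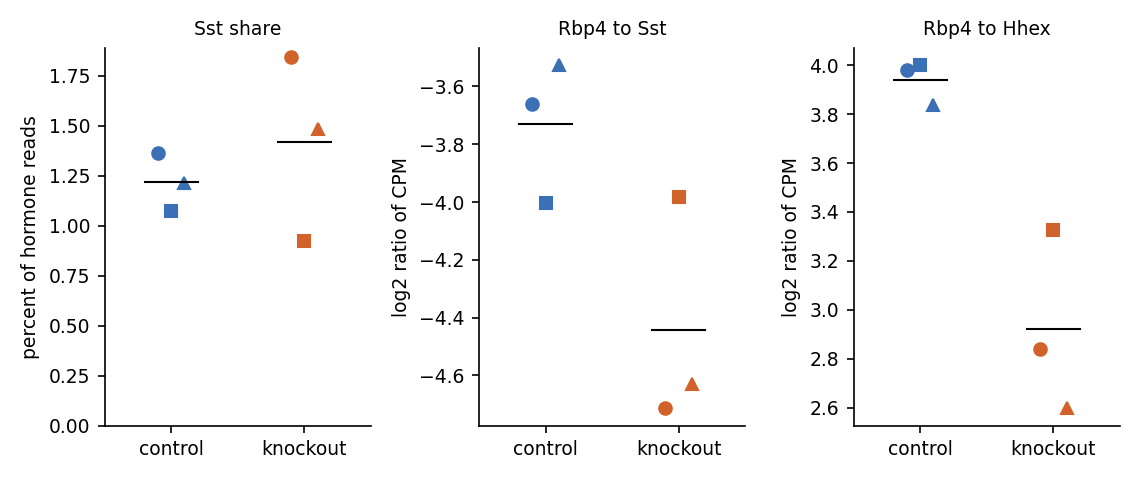
The 3 panels plot, for each control and knockout library, the share of Sst among hormone reads (percent) and the log2 ratios of CPM of Rbp4 to Sst and of Rbp4 to Hhex. Circles, squares and triangles are replicates 1, 2 and 3 and black lines are group means; the groups overlap in the first 2 panels, and in the last the knockout values of 2.60 to 3.33 lie below the control values, the lowest of which is 3.84.

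Sstr3 (ENSMUSG00000044933, chromosome 15, 78537008 to 78544685, minus strand) was the receptor gene with by far the most transcripts. It was at 237, 297 and 259 CPM in control and 60.8, 92.7 and 118 CPM in knockout libraries. The highest knockout library held less than the lowest control library, although the knockout libraries differed among themselves by more than the control libraries in proportion to their level. The mean fell from 264 ± 30.5 to 90.6 ± 28.8 CPM, or by 1.55 on the log2 scale with SE 0.24 (adjusted p = 0.00851, edgeR quasi-likelihood test), and the call held whichever library was left out. With the acinar covariate the change was -1.75 (adjusted p = 0.0341).

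Sstr2 (ENSMUSG00000047904, chromosome 11, 113619342 to 113626028, plus strand) was at 8.01, 4.39 and 7.10 CPM in control and 5.14, 3.53 and 3.65 CPM in knockout libraries. Knockout replicate 1 was above control replicate 2, so the groups overlapped (log2 fold change -0.66, SE 0.30, adjusted p = 0.200). Sstr1 (ENSMUSG00000035431, chromosome 12, 58211772 to 58214444, plus strand) had the opposite sign, at 2.0, 1.12 and 2.42 CPM in control and 3.01, 2.21 and 4.21 CPM in knockout libraries. Its groups overlapped as well, since knockout replicate 2 was below control replicate 3 (log2 fold change 0.77, SE 0.38, adjusted p = 0.234). Neither gene was called in any of the fits run.

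Sstr5 (ENSMUSG00000050824, chromosome 17, 25489875 to 25497288, minus strand) had 7, 3 and 7 reads in control and 1, 0 and 0 reads in knockout libraries. Pooled over each group and scaled by depth, control exceeded knockout by a ratio of 16.0, with a 95% interval of 2.51 to 669 that covers counting error only. Fitted with no filter on low counts, its adjusted p was 0.0700. The authors' deposited table gave it a log2 fold change of -0.16 (SE 0.41), with no adjusted p. Sstr4, the remaining receptor gene of the family, had 2, 0 and 2 reads in control and 3, 3 and 5 in knockout libraries. Cort, which encodes the related ligand cortistatin, had 2, 1 and 1 against 0, 1 and 1 reads. At these counts no change of Sstr4 or Cort could be detected.

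Compared per length, in TPM (the deposited level scaled by transcript length and library total), the control means ran from Sst at 5059 ± 339 through Rbp4 at 283 ± 52.5, Sstr3 at 56.9 ± 2.66, Hhex at 8.52 ± 1.94, Sstr2 at 3.06 ± 1.09, Ghsr at 1.48 ± 0.462 and Sstr1 at 0.911 ± 0.386 to Sstr5 at 0.089 ± 0.039 (SD, n = 3). Neighbours in this order had ranges that did not overlap, except Ghsr and Sstr1. In knockout islets Sst was at 3452 ± 1256, Rbp4 at 114 ± 16.8, Sstr3 at 24.3 ± 10.2, Hhex at 6.69 ± 2.71, Sstr2 at 2.38 ± 0.957, Sstr1 at 2.01 ± 1.00, Ghsr at 0.894 ± 0.356 and Sstr5 at 0.007 ± 0.013 TPM. The means of Ghsr and Sstr1 thus stood in the other order, and Sstr1 exceeded Sstr2 in knockout replicate 3, at 2.95 against 2.34 TPM. Unlike their CPM, the TPM of Hhex and Ghsr overlapped between groups. Control replicate 2 was at 6.31 and 0.942 TPM, below knockout replicate 1 at 7.28 and 1.12 TPM. TPM carries no TMM scaling between libraries, and the relation of TPM to CPM differed between them. Sst, with 1 transcript, was at 3226 CPM and 4780 TPM in control replicate 2. In knockout replicate 1 it was at 1755 CPM and 4164 TPM. The part of this in the overlaps and in the spread of the knockout TPM was not tested.

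**Figure D3:**
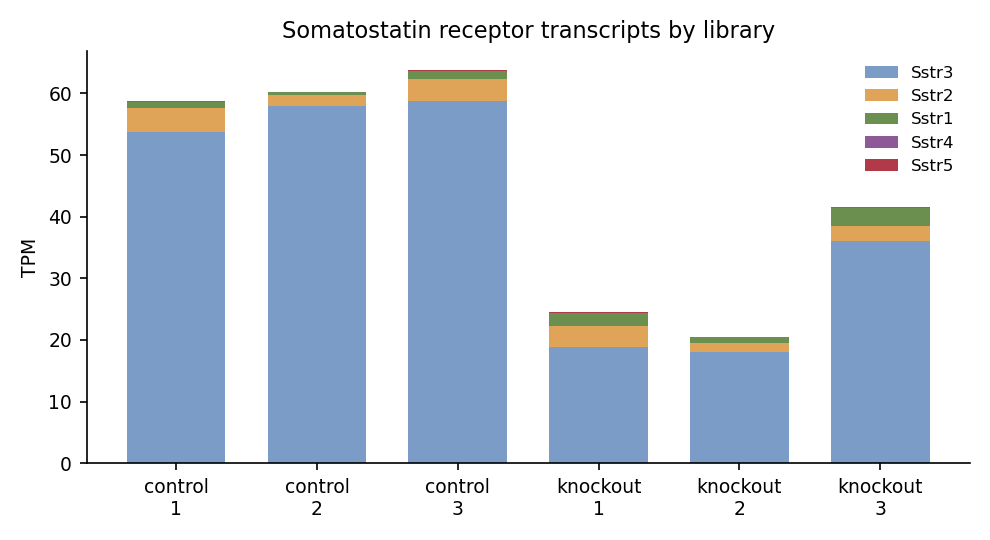
Stacked bars of the TPM of the 5 somatostatin receptor genes, 1 bar per library, on a linear axis from 0. Sstr3 fills most of every bar, at 53.8 to 58.8 TPM in control and 18.0 to 36.1 TPM in knockout libraries, and the segments of Sstr4 and Sstr5 are barely visible.

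The receptor genes summed to 58.8, 60.3 and 63.7 TPM in control and 24.5, 20.5 and 41.6 TPM in knockout libraries, so every knockout library had a lower summed receptor TPM than any control library. Sstr3 is most of this sum, and TPM carries no TMM scaling between libraries. The sum is therefore no separate result for the receptor family. Sstr3 made up 91.5, 96.1 and 92.3% of that sum in control and 77.1, 87.7 and 86.8% in knockout libraries, with means of 93.3 ± 2.49 and 83.9 ± 5.91% (SD, n = 3 each, exact permutation p = 0.1, the smallest possible, and 0.25 after adjustment). The difference in the mean share of Sstr3 was -9.41 percentage points in TPM and -4.89 in reads. It stayed the leading receptor transcript in all 6 libraries. Sstr1 made up 1.73, 0.802 and 1.93% in control and 8.63, 4.66 and 7.10% in knockout libraries, also without overlap (exact permutation p = 0.1, 0.25 after adjustment). Both shares are parts of the same sum, so that of Sstr1 is not independent of that of Sstr3. The TPM of Sstr1 itself, 0.483 to 1.23 in control and 0.957 to 2.95 in knockout libraries, overlapped. Sstr2 made up 3.00 to 6.50% in control and 5.64 to 13.7% in knockout libraries, which overlapped.

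**Figure D4:**
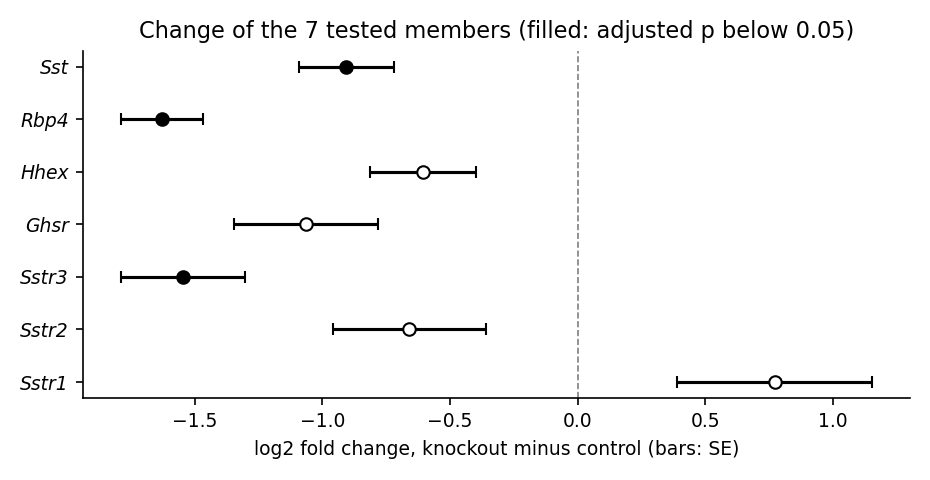
Log2 fold change of each tested member, Dpy30 knockout minus control, from edgeR, with bars for the SE and filled points for an adjusted p under 0.05. Rbp4 at -1.63, Sstr3 at -1.55 and Sst at -0.91 are filled, and Sstr1 at 0.77 is the 1 tested member above 0.

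The authors' deposited table of their own comparison gave log2 fold changes of -0.86 for Sst (adjusted p = 1.45e-05), -1.48 for Sstr3 (7.94e-08), -1.57 for Rbp4 (2.83e-18), -0.89 for Ghsr (0.00937) and -0.57 for Hhex (0.0427). In the authors' deposited table Sstr2 (-0.48, adjusted p = 0.155) and Sstr1 (0.42, adjusted p = 0.245) were above 0.05. It thus held 2 members, Ghsr and Hhex, under 0.05 that the edgeR test did not call. Its headers do not say whether the fold changes were shrunk towards 0, so their sizes are not compared with those of edgeR.

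The genes that make somatostatin from its precursor gave no call. Of 6 tested processing genes, 0 passed edgeR's or limma's test, 1 had an unadjusted p under 0.05, and DESeq2 called 1, Scg5, the chaperone of the prohormone convertase PC2 (log2 fold change 0.41, SE 0.16, edgeR adjusted p = 0.143). Pcsk2, the convertase PC2 itself, was at 4129 to 4583 CPM in control and 3268 to 4145 CPM in knockout libraries (log2 fold change -0.21, SE 0.19, adjusted p = 0.497). Cpe, the carboxypeptidase that trims the cut peptides, was at 3380 to 3873 and 3310 to 4389 CPM (0.14, SE 0.19, adjusted p = 0.690). The list's median log2 fold change was -0.04, close to that of all tested genes.

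Downstream of the receptors, 1 of 22 tested signalling genes was lower and 0 were higher, with a median of -0.10. That is near the share over all tested genes, of which 5.84% were lower and 4.1% higher. The list holds inhibitory G protein subunits, the potassium channels they open, and the kinases and arrestins that desensitise receptors. The gene called was Grk5, a kinase that phosphorylates activated receptors, which fell from 78.1 ± 2.36 to 56.0 ± 4.28 CPM (SD, n = 3 each; log2 fold change -0.48, SE 0.12, adjusted p = 0.0441). With 1 library left out in turn, its call held only without knockout replicate 2, and it was lost with library totals (adjusted p = 0.130), no filter (0.0788), the length offset (0.0524) and the acinar covariate (0.201). The abundant G protein genes Gnao1 (-0.48, SE 0.17, adjusted p = 0.106) and Gnai2 (-0.45, SE 0.16, adjusted p = 0.125) did not pass. With the replicate block 4 genes of the list were lower and 1 was higher.

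Of 18 tested genes that regulate delta cell fate or Sst transcription, Hhex among them, 4 were lower and 0 higher (5.84% and 4.1% of all tested genes). Their median log2 fold change was -0.29. Isl1, a LIM homeobox factor of all islet endocrine cells that binds the Sst promoter, was at 203, 210 and 223 CPM in control and 91.3, 97 and 94.4 CPM in knockout libraries (log2 fold change -1.17, SE 0.13, adjusted p = 0.00226). The libraries of each group lay close together, and Isl1 was called whichever library was left out. Pax6, a paired-box factor of endocrine cells, fell from 400 ± 95.9 to 230 ± 26.9 CPM (-0.80, SE 0.20, adjusted p = 0.0440) and lost its call whichever library was left out. Nkx2-2 (-0.59, SE 0.13, adjusted p = 0.0277) and Rfx6 (-0.66, SE 0.15, adjusted p = 0.0305), both needed for the endocrine lineage, held their calls, with 1 library left out in turn, only without knockout replicate 2. The count of lower genes in the list was 3 without knockout replicate 2 and 1 without any other single library, and 1 with library totals alone. Pax4 had too few reads for the test on all 6 libraries, and 0 reads in control libraries. With 1 library left out the filter asks for reads in fewer libraries, and its knockout reads alone can let Pax4 in. It was then called higher without a control library, whichever it was, or without knockout replicate 3. Such a call adds no independent support for a change. Crem, a cyclic AMP responsive factor, passed as higher when control replicate 1 was left out. With the acinar covariate Isl1 kept its call (adjusted p = 0.0237) and the other 3 did not. Neurod1 (-0.21, adjusted p = 0.584) and Insm1 (-0.13, adjusted p = 0.575), general endocrine factors, were not called.

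Among the signals that reach delta cells, 3 of 12 tested genes were lower and 0 higher (5.84% and 4.1% of all tested genes). Each of the 3 was called whichever library was left out. Ucn3 encodes urocortin 3, which beta cells release together with insulin and which stimulates somatostatin release. It was at 381, 488 and 296 CPM in control and 111, 136 and 137 CPM in knockout libraries (log2 fold change -1.60, SE 0.21, adjusted p = 0.00440). Gcgr, the glucagon receptor gene, was at 22.9, 27.6 and 27.1 CPM in control and 0.401, 2.90 and 1.39 CPM in knockout libraries (-4.11, SE 0.55, adjusted p = 0.00444). Glp1r, the receptor gene for glucagon-like peptide 1, fell from 647 ± 233 to 172 ± 37.9 CPM (-1.91, SE 0.29, adjusted p = 0.00707). Both receptors are also made by beta cells, 2 of whose 8 markers, Slc2a2 and Ucn3, were called lower. Adra2a, an adrenergic receptor that inhibits secretion, was at 108 to 151 CPM in control and 107 to 153 CPM in knockout libraries (log2 fold change 0.01, SE 0.19, adjusted p = 0.984), and Gipr was not called (-0.28, SE 0.30, adjusted p = 0.590).

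Beside Rbp4, 1 other gene of the retinoid list was lower: 2 of 14 tested genes fell and 0 rose (5.84% and 4.1% of all tested genes). The median log2 fold change of the list was 0.24. Bco1, the enzyme that cleaves beta-carotene to retinal, was at 9.72, 9.69 and 7.23 CPM in control and 2.13, 0.945 and 2.29 CPM in knockout libraries (-2.28, SE 0.35, adjusted p = 0.00745), a call that held whichever library was left out. Ttr, transthyretin, which binds Rbp4 in plasma and is abundant in alpha cells, had the other sign and was not called (0.54, SE 0.23, adjusted p = 0.179). Rxra, a retinoid X receptor gene, missed the threshold (-0.65, SE 0.17, adjusted p = 0.0513) and was called with the replicate block (0.0425), which made 3 genes of the list lower, with DESeq2 (0.0128), with no filter (0.0361) and with the acinar covariate (0.0468).

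**Figure D5:**
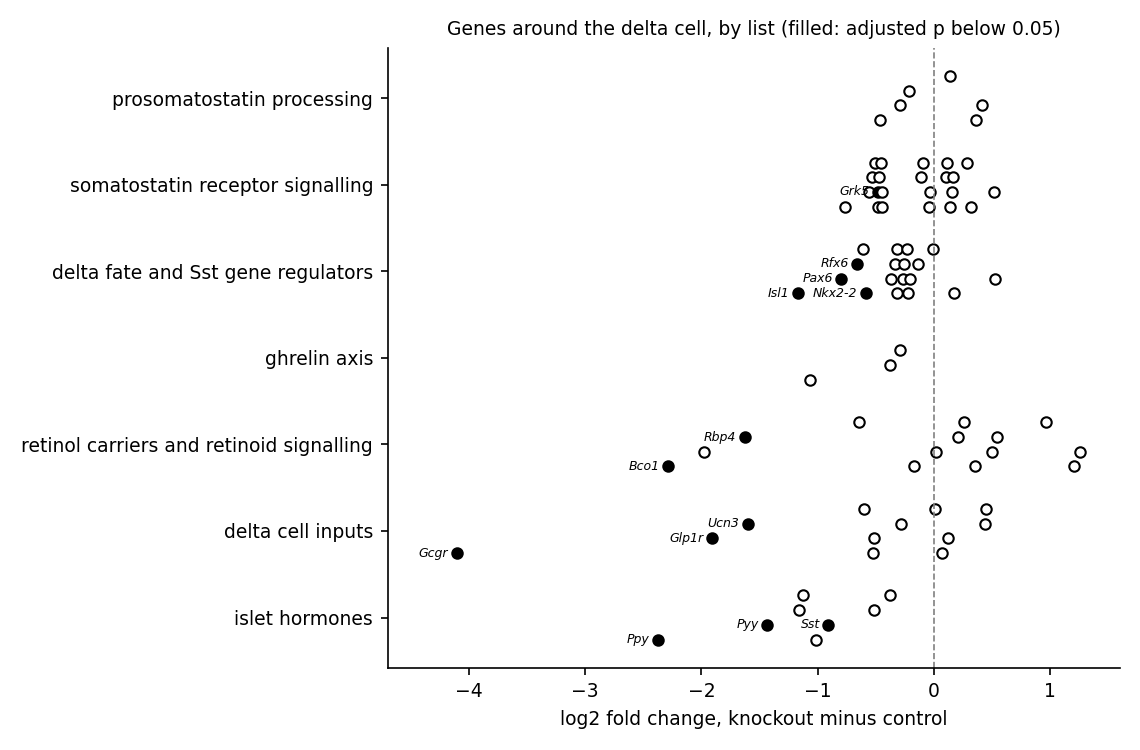
Log2 fold change (Dpy30 knockout minus control, edgeR) of every tested gene in 7 gene lists around the delta cell, 1 row per list, with filled and named points for genes called at an adjusted p under 0.05. Vertical offsets inside a row only separate the points. Gcgr at -4.11 lies furthest to the left, and no filled point lies above 0.

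Genes whose profile over the 6 libraries was most like a member's were ranked by the root mean square difference of log2 CPM, each gene centred on its own mean, among 10137 genes of at least 8 CPM. Nearest to Sst were Slc16a12 at 0.0590, a creatine transporter gene, Cdh1 at 0.0639, which encodes the epithelial adhesion protein E-cadherin, and C8b at 0.0682, a complement component gene. Like Sst, all 3 were lowest in knockout replicate 2. Nearest to Hhex were Nhsl1 at 0.0571, Hivep1 at 0.0771 and Lss at 0.0807, and nearest to Rbp4, at a wider distance, Pde1c at 0.134, Arg1 at 0.136 and Stx16 at 0.142. These distances rest on 6 libraries in 2 groups and describe those libraries only.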

How the data were processed

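RNA-seq was made from islets of 6 mice, in 2 groups of 3. The submitters' processing notes name the tools Trimmomatic, Salmon and DESeq2, with GRCm38 and mm10 as builds and no versions. The authors deposited, per the file headers, Salmon tables with estimated counts and TPM per transcript. Their own comparison (log2 values of fold change, p-values) was deposited too and is cited where used. A deposited table of scaled gene values was not used.

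Here 139852 of 140948 transcripts (99.6 to 99.7% of reads) were matched to GENCODE vM21, and the estimated counts of each gene's transcripts were added up and rounded. edgeR 4.0.16 (R 4.3.3) was run with filterByExpr (minimum count 10), TMM and the quasi-likelihood test, two-sided, with group as the only term. All genes shared the adjustment. The common biological coefficient of variation was 0.26, and a prior count of 2 was used for log2 CPM. The code was tested on 3 simulated sets with 200 changed genes each. It recovered 18.5% of 2-fold and 81.8% of 4-fold changes, and 8.25% of its calls were false. A gene that was not called can therefore still have changed. Rounding and Salmon's sharing of reads make low counts uncertain. Single values per library were compared by exact permutation (scipy 1.17.1).

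Deviations of same-numbered libraries of the 2 groups had correlations of 0.523, 0.125 and 0.178 (replicates 1, 2 and 3), against -0.399 to 0.224 for other pairs. Only replicate 1 stood above every other pair, and replicates 2 and 3 were below the highest of them. The number was also fitted as a block, and the calls it adds depend on that weakly backed pairing. That pairing comes from the data, as no label says what a shared number stands for. Other alternatives were RLE and library-total scaling, no filter, a length offset, leaving out insulin and Gm42418 reads, an acinar covariate, limma 3.58.1, DESeq2 1.42.0 and leaving out each library.

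The members and lists were chosen with earlier results of these data known. Named genes are all members, Cort and Sstr4, up to 6 called genes per list by smallest p with the 2 most abundant uncalled ones, and the 3 nearest profiles of Sst, Hhex and Rbp4. Scg5 was added after its values were seen. A gene of the delta fate list is not reported here and was left out of its counts.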

Additional observations from a re-analysis of the deposited data

How the results depend on the processing

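The calls of Sstr3 and Rbp4 held under every alternative run, and that of Sst was lost in the 4 fits and the scaling named above. With the replicate block 5 members were called, Hhex and Ghsr being added. Without 1 library, 2 to 3 members were called. The number of genes called over the whole table was 1634 and became 2430 with the replicate block, 2633 with DESeq2, 617 with the acinar covariate and 737 to 1330 without 1 library. The difference in the Sst share of hormone reads was 0.199 percentage points and ranged from -0.0141 (without knockout replicate 1) to 0.447 without 1 library; paired by number its exact p over sign flips was 0.5. The difference in the Sstr3 share of receptor TPM ranged from -11.3 to -6.01 points without 1 library and was -4.89 points in reads, while without 1 library the difference in the log2 ratio of Sst to Hhex ranged from -0.458 to -0.138, in that of Rbp4 to Sst from -0.943 to -0.577 and in the exon 4 share from 76.7 to 79.1 points. Signs turned for 3 uncalled genes: Cpe with the acinar covariate (-0.037), Ghrl with the acinar covariate (0.19) and without control replicate 3 (range without 1 library -0.70 to 0.13), and Adra2a without a filter (-0.0085), with the acinar covariate (-0.069) and without control replicates 2 or 3 or knockout replicate 1 (range without 1 library -0.16 to 0.16). The causes were not tested. Depth limits Sstr5, Sstr4 and Cort, and 3 libraries per group limit the exact tests to p = 0.1.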

Other observations

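Pax4, a paired-box factor that favours beta and delta over alpha fate during development, had 0 reads in every control library and 19, 11 and 9 reads in knockout replicates 1, 2 and 3. Pooled over each group and set against a floor of 3 counts over the control group, it was at least 13.8-fold higher in knockout islets. It did not pass the filter on low counts, and in a fit without that filter its adjusted p was 0.00140 (edgeR quasi-likelihood test). Pax4 was chosen after its values were seen and had 0 control reads, so that adjusted p is no independent support. In the authors' deposited table its log2 fold change was 6.18 (SE 2.71), with no adjusted p.

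Among the hormone genes, Iapp, the amyloid polypeptide released with insulin, held 5.74 to 7.08% of hormone reads in control and 8.31 to 10.6% in knockout libraries, without overlap (exact permutation p = 0.1, 0.25 after adjustment over 25 tests). The level of Iapp itself was 16700.2 ± 3579 CPM in control and 11690.4 ± 2843 CPM in knockout libraries, which overlapped (log2 fold change -0.51, SE 0.27, edgeR adjusted p = 0.259). The share of Ppy went the other way, from 0.845 to 2.02% in control to 0.479 to 0.688% in knockout libraries.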
